A study of Mus musculus with 2 samples.

Results

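Regulators of G protein signalling (RGS proteins) end the signal of G protein-coupled receptors. They bind the active alpha subunit of a G protein and speed the hydrolysis of its GTP, which returns the subunit to its resting state. Members of the Rgs gene family are used as cell markers in brain, and Rgs5 in particular marks mural cells, the pericytes and smooth muscle cells of the vessel wall. The genes described here are the 10 family members Rgs2, Rgs3, Rgs4, Rgs5, Rgs7, Rgs8, Rgs10, Rgs12, Rgs14 and Rgs16, taken by symbol from 32531 listed genes, and all 10 had counts in both libraries.

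The counts come from 2 libraries, IP1 and IP2, of RNA bound to tagged ribosomes, from the cerebral cortex of untreated adult mice of the line Gdnf-EGFP/Rpl10a (ES2243). In this translating ribosome affinity purification (TRAP), a ribosomal protein fused to a fluorescent tag is expressed under the regulatory sequences of Gdnf, and tagged polysomes are pulled from the tissue homogenate with an antibody. Both libraries carry the same transgene and form 1 group, so levels are described, and unpurified cortex RNA was not analysed here. The labels do not say whether each library is 1 animal or a pool, so the spread between them may be technical. IP1 held 65200231 and IP2 72732502 reads in genes. Values are CPM, the count of a gene scaled to the usual common total of gene counts in each library and not divided by gene length, so the order of genes given below is an order of counted reads and not of transcript numbers.

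The series names the profiled cells as pericytes, and all 8 pericyte and all 7 pan-mural markers checked reached 10 CPM in both libraries. All 6 arterial smooth muscle markers did too (medians 127 CPM in IP1 and 128 CPM in IP2). None of the 7 endothelial and none of the 7 microglial markers did. All 6 pan-neuronal markers did too, with list medians of 562 CPM in IP1 against 580 CPM in IP2, beside 171 and 186 CPM for the pericyte list. So did all 6 oligodendrocyte markers (medians 411 and 401 CPM), all 5 of oligodendrocyte precursors (344 and 427 CPM), all 6 of perivascular fibroblasts (128 and 163 CPM) and 5 of 6 of astrocytes (35.4 and 69.8 CPM). The driver gene Gdnf was at 10.2 CPM in IP1 against 7.84 CPM in IP2, and Rpl10a, the gene of the tagged protein, at 4.37 and 3.74 CPM. Reads aligned to several places (31.2% of listed reads in IP1 and 31.5% in IP2) were given to no gene. How many of them belong to Rpl10a is not known, so its counts may understate its level. Counts of an Rgs gene that these other cells also use can therefore not be credited to mural cells alone. In such bulk RNA, fewer cells of a type and less RNA per cell cannot be told apart.

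The 10 genes fall into 3 structural subfamilies. Rgs2, Rgs3, Rgs4, Rgs5, Rgs8 and Rgs16 belong to the R4 subfamily, most of whose proteins are little more than the catalytic RGS domain. Rgs7 is of the R7 subfamily, whose proteins work as a complex with the G protein beta subunit encoded by Gnb5. Rgs10, Rgs12 and Rgs14 make up the R12 subfamily. Rgs12 and Rgs14 encode large scaffold proteins that also hold a GoLoco motif, which keeps an inhibitory-class alpha subunit in its GDP-bound form.

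Reads of the family were concentrated on a pair of R4 genes. Rgs5 (chromosome 1, 169655501 to 169695813, plus strand, GRCm38.p6) had 315613 counts in IP1 and 295366 in IP2, which is 4841 and 4061 CPM (mean 4451 ± 551, SD, n = 2). Rgs4 (chromosome 1, 169741477 to 169747642, minus strand), which is expressed in cortical neurons as well as in mural cells, had 115194 and 140394 counts, or 1767 and 1930 CPM (mean 1849 ± 116, SD, n = 2). Rgs5 ranked 4 and Rgs4 ranked 22 among all genes by mean CPM. In both libraries Rgs5 had the more reads, by 2.74-fold in IP1 and 2.10-fold in IP2.

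Over all 22 Rgs-named genes (Rgsl1 included, the binding protein genes Rgs7bp and Rgs9bp left out), Rgs5 took 66.6% of the reads in IP1 (exact Clopper-Pearson 95% interval 66.5 to 66.8%) and 62.3% in IP2 (62.2 to 62.5%). Rgs4 took 24.3% in IP1 (24.2 to 24.4%) and 29.6% in IP2 (29.5 to 29.8%). Together they held 91.0% and 92.0% of the reads of the family, so a higher share of one leaves a lower share for the other. The 10 genes together made up 0.694% of all gene counts in IP1 and 0.628% in IP2. These intervals are for the counting of reads and hold no spread between libraries. Reads were not marked by molecular identifiers, so the intervals may be too narrow even for counting error.

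Rgs5 and Rgs4 are also neighbours in the genome. They lie 45.7 kb apart with their ends facing each other, and the RefSeq annotation lists no gene between them (0 genes). Because these 2 genes carry most of the family's reads from 1 place on chromosome 1, the 120 bases before each start site are printed here from RefSeq (GRCm38.p6). Capitals mark the CCAAT box, read on either strand, and the letters TATAAA.
Rgs5 (chr1:169655381-169655500, plus strand): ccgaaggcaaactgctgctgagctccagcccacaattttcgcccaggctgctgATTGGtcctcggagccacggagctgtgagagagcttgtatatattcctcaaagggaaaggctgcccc
Rgs4 (chr1:169747643-169747762, minus strand): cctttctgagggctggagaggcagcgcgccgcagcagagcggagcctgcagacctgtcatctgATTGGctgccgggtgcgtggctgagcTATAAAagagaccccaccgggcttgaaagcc

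Each of the pair has 1 CCAAT box in reverse orientation, which begins 67 bases before the start site in Rgs5 and 57 bases before it in Rgs4. Of the 2, Rgs4 alone has the letters TATAAA in this window, 31 bases before its start site. Only these exact letters were searched, so similar stretches, such as the tatata of the Rgs5 window, were not marked. The motifs were searched on both strands in the 250 bases before each start site, with 13 windows found for 9 of the 10 genes. CCAAT was found for 5 of those 9 genes (Rgs2, Rgs4, Rgs5, Rgs8 and Rgs16, all of the R4 subfamily), in 6 of 13 windows, and in 33.8% of all 32851 windows in the table. TATAAA was found for Rgs3 and Rgs4 and in 12.4% of all windows. The cyclic AMP response element TGACGTCA (1.55% of all windows) and the CArG box (1.47%), the binding sequence of serum response factor, were found in 0 of the 13 windows. A match is a description of the letters, and no binding was measured.

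**Figure D1:**
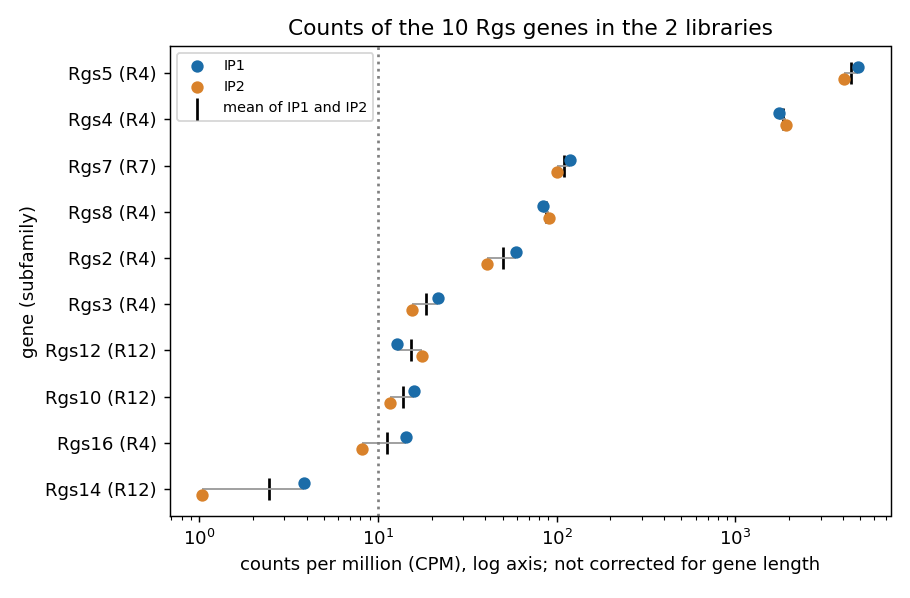
CPM on a log axis for the 10 Rgs genes in IP1 and IP2, with the mean of both as a bar and the subfamily in brackets. Rgs5 and Rgs4 lie above 1000 CPM in both libraries, 7 genes have means between 11.3 and 110 CPM, and Rgs14 lies below 10 CPM (dotted line) in both.

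The other R4 genes were counted far less often. Rgs8 (chromosome 1, 153652959 to 153697669), which is known from neurons, had 84.5 CPM in IP1 against 90.4 CPM in IP2 (mean 87.5 ± 4.22, SD, n = 2). This was the smallest spread of the 10 genes relative to the mean, at 4.82%. Rgs2 (chromosome 1, 143999338 to 144004149) encodes a regulator that prefers alpha subunits of the Gq class and lowers the response to vasoconstrictors. It had 59.7 CPM in IP1 against 40.8 CPM in IP2 (mean 50.2 ± 13.3, SD, n = 2). The values of Rgs8 and Rgs2 did not overlap.

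Rgs3 (chromosome 4, 62559835 to 62703019), which acts on Gq-class and Gi-class subunits, had 21.8 CPM in IP1 against 15.6 CPM in IP2 (mean 18.7 ± 4.39, SD, n = 2). Rgs16 (chromosome 1, 153740353 to 153745468), an inducible member, had 14.4 CPM in IP1 against 8.14 CPM in IP2 (mean 11.3 ± 4.42, SD, n = 2). IP1 was the higher library for both genes.

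Rgs7, the R7 member, was the third by counted reads. Rgs7 (chromosome 1, 175059076 to 175492862) had 118 CPM in IP1 against 101 CPM in IP2 (mean 110 ± 12.4, SD, n = 2), above Rgs8 in both libraries but by only 1.12-fold in IP2. Genes of its partners were present. Rgs7bp, whose product anchors the complex at the membrane, had 401 CPM in IP1 against 370 CPM in IP2. The orphan receptor gene Gpr158, which recruits R7 proteins, had 122 and 134 CPM, and Gnb5 had 67.0 and 49.0 CPM. Of the 5 partner genes, 3 reached 10 CPM in both libraries. Rgs9bp and Gpr179, which are known from the retina, were the others, at means of 3.20 and 0.27 CPM.

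The R12 genes were the least counted subfamily. Rgs12 (chromosome 5, 34948929 to 35039642) had 12.8 CPM in IP1 against 17.7 CPM in IP2 (mean 15.3 ± 3.50, SD, n = 2). Rgs10 (chromosome 7, 128373621 to 128419506), whose product is a small regulator of Gi-class subunits and is abundant in microglia, had 15.8 CPM in IP1 against 11.8 CPM in IP2 (mean 13.8 ± 2.88, SD, n = 2). The order of these 2 genes was opposite in the 2 libraries. The 7 microglial markers summed to 27.0 CPM in IP1 against 31.0 CPM in IP2, and Tmem119 (9.46 and 13.6 CPM) had the largest difference of the 7. Of them, 5 were higher in IP2. The 2 others, P2ry12 (6.66 and 5.72 CPM) and C1qb (2.15 and 0.81 CPM), were higher in IP1, as Rgs10 was. The part of microglia in the count of Rgs10 was not tested.

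Rgs14 (chromosome 13, 55369732 to 55384687), known for its place in hippocampal neurons, was the least counted of the 10. It had 253 counts in IP1 and 76 in IP2, which is 3.88 CPM (exact 95% interval 3.42 to 4.39) and 1.04 CPM (0.82 to 1.31). It was below the lower value of Rgs16 in both libraries.

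By counted reads the order of the means was Rgs5, Rgs4, Rgs7, Rgs8, Rgs2, Rgs3, Rgs12, Rgs10, Rgs16 and Rgs14. Each of the first 5 was separated from the next by library ranges that did not overlap, and so was Rgs16 from Rgs14. The library ranges of the neighbours Rgs3 and Rgs12, Rgs12 and Rgs10, and Rgs10 and Rgs16 overlapped. The order of Rgs3 and Rgs12, and of Rgs12 and Rgs10, was opposite in the 2 libraries. Rgs10 was above Rgs16 in both, by 1.10-fold in IP1 and 1.45-fold in IP2. The largest step was between Rgs4 and Rgs7, at 14.9-fold in IP1 and 19.1-fold in IP2. Of the 10 genes, 8 reached 10 CPM in both libraries, beside 28.3% of all listed genes and 53.2% of the 17306 genes with at least 10 counts in total. Rgs16 and Rgs14 were the other 2.

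The rest of the family held few reads. Of the 12 other Rgs-named genes, 5 reached 10 CPM in both libraries. Rgs17, which serves Gz and Gi-class subunits, led them with 198 CPM in IP1 against 134 CPM in IP2, more than Rgs7 in both libraries. Rgs20 (47.1 and 35.8 CPM) and Rgs19 (33.8 and 25.9 CPM), of the same RZ subfamily, came next. Rgs21 had no count in either library, which allows up to 0.046 CPM in IP1 against 0.041 CPM in IP2. The 10 genes described here held 95.5% of the reads of all Rgs-named genes in IP1 and 96.4% in IP2, although Rgs17 stands outside them.

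**Figure D2:**
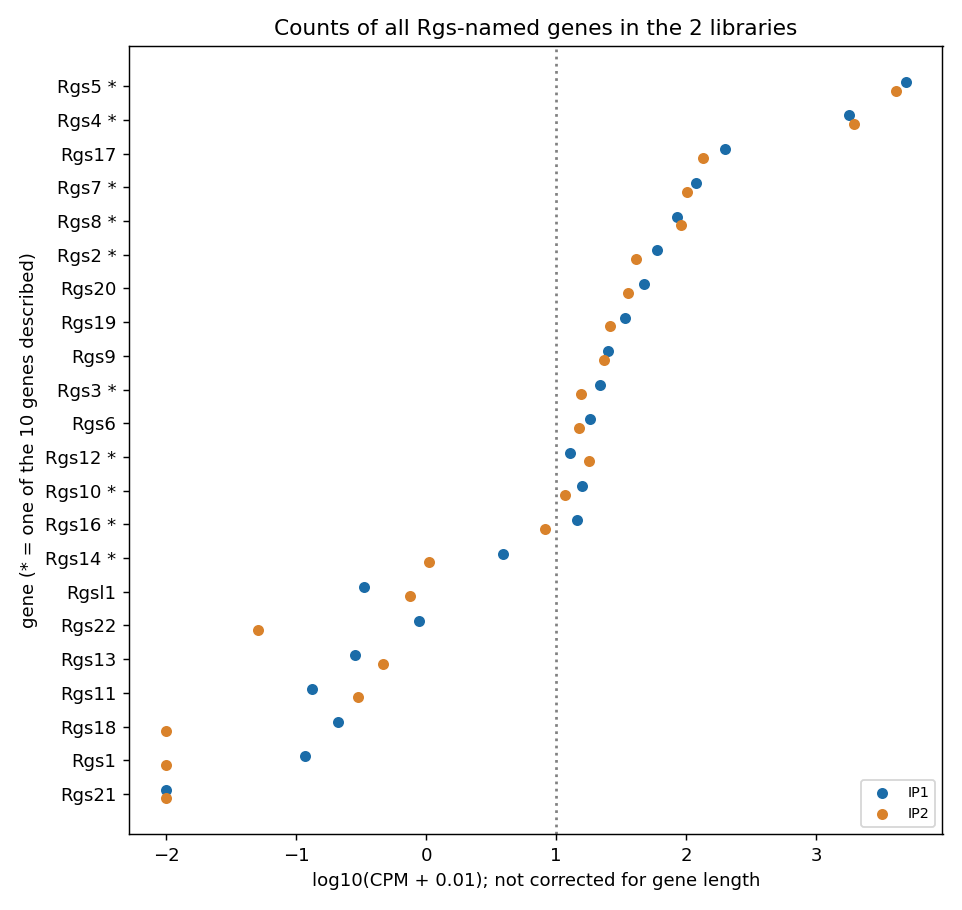
log10(CPM + 0.01) of all 22 Rgs-named genes in IP1 and IP2, with the 10 genes described here marked by an asterisk and 10 CPM by a dotted line. Rgs5 and Rgs4 stand apart at the top, Rgs17 is the highest of the other 12, and Rgs21 has no count.

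The G proteins that these regulators act on were counted in both libraries. Of 11 genes of Gi, Go, Gz and Gq-class alpha subunits, 7 reached 10 CPM in both. Gnao1, the Go subunit abundant in neurons, had 1723 CPM in IP1 against 1758 CPM in IP2. Gnai1 (542 and 497 CPM) and the Gq gene Gnaq (533 and 477 CPM) followed. All 4 genes of the Gs and G12 classes, which are not the usual substrates of these proteins, also reached 10 CPM, led by Gnas (2381 and 2303 CPM), Gna13 (320 and 325 CPM) and Gnal (278 and 255 CPM).

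RGS4, RGS5 and RGS16 are unstable proteins. Their amino-terminal cysteine is exposed by methionine aminopeptidases, oxidized by the enzyme encoded by Ado, and arginylated by the product of Ate1, after which ubiquitin ligases of the UBR family mark the protein for breakdown. All 7 genes of this route were at 10 CPM or more in both libraries, with Metap2 at 209 and 200 CPM (IP1 and IP2), Ate1 at 115 and 106 CPM and Ado at 99.0 and 79.7 CPM. Their log2 ratios of IP2 over IP1 lay between -0.31 and 0.36. Ribosome-bound RNA does not give the amount of a protein that is removed in this way.

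Other genes with an RGS domain include RhoGEFs, receptor kinases, axins and sorting nexins, and 12 of 15 reached 10 CPM in both libraries. The highest were the RhoGEF gene Arhgef12 (731 and 760 CPM), Arhgef11 (169 and 145 CPM) and Snx13 (138 and 160 CPM). Of 5 other GoLoco genes, 2 reached 10 CPM in both. Rap1gap had 37.5 and 33.1 CPM, Gpsm2 12.1 and 12.4 CPM, and Gpsm1 9.80 and 8.36 CPM. The 3 highest genes of each of the 9 functional lists make 27, and the spans of 20 overlap another gene in the RefSeq annotation. Part of their reads may have been left unassigned. Ambiguous reads were 1.64% of listed reads in IP1 and 1.60% in IP2.

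IP1 and IP2 belong to 1 group, so their ratio describes spread and no p-value is given. Of the 10 genes, 2 differed by at least 1.5-fold, both higher in IP1, beside 31.9% of the 17306 genes with at least 10 counts in total (18.1% higher in IP1 and 13.7% higher in IP2). Among the 9656 genes whose mean reached 10 CPM the share was 11.0%. Rgs14 is not in that set, and of the Rgs members in it Rgs16 alone passed. At 2-fold, 1 of the 10 (Rgs14) passed, beside 18.5% of the 17306 genes. Rgs16 was 1.77-fold higher in IP1 (log2 ratio of IP2 over IP1 -0.82, 95% interval for counting error -0.97 to -0.67). Rgs14 was 3.71-fold higher in IP1 (log2 ratio -1.89, -2.28 to -1.52). Rgs14 has a mean of 2.46 CPM, and 9.78% of all tested genes had a ratio at least as large in either direction. For Rgs16 the share was 22.5% of all tested genes and 3.54% of those with a mean of at least 10 CPM.

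The most counted members were close in both libraries. The log2 ratio of IP2 over IP1 was -0.25 for Rgs5, 0.13 for Rgs4, -0.23 for Rgs7 and 0.098 for Rgs8. Ratios of this size or larger were seen in 59.9%, 78.1%, 62.7% and 82.8% of tested genes, in that order. Rgs2 (-0.55), Rgs3 (-0.48) and Rgs10 (-0.43) were lower in IP2 and Rgs12 (0.47) higher, each within 1.5-fold. In all, 7 of the 10 were higher in IP1 at any size, beside 55.3% of tested genes. The median log2 ratio was -0.34 over the 10 genes and -0.06 over all tested genes.

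**Figure D3:**
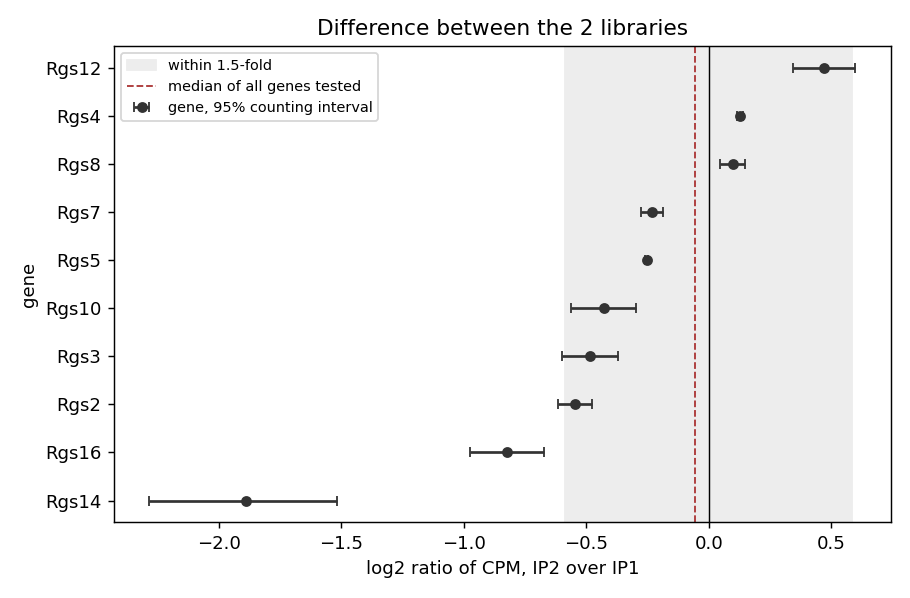
log2 ratio of CPM, IP2 over IP1, for the 10 Rgs genes, with bars for the 95% counting interval, a grey band for ratios within 1.5-fold and a dashed line for the median of all tested genes. Rgs14 (-1.89) and Rgs16 (-0.82) lie outside the band, both on the side of IP1, and Rgs12 (0.47) is the highest.

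Rgs2 and Rgs16 are inducible genes, so genes of the immediate early response, induced by neuronal activity or by dissection, were set beside them. Of 17 such genes, 10 were at least 1.5-fold higher in IP1 and 0 in IP2, beside 18.1% and 13.7% of all tested genes, with a median log2 ratio of -1.18. At any size, 14 were higher in IP1. Egr1 had 728 CPM in IP1 against 281 CPM in IP2, and Dusp1 158 and 65.8 CPM. Egr3 (205 and 243 CPM), Nr4a2 (53.5 and 78.0 CPM) and Fosb (16.7 and 21.0 CPM) were the 3 that were higher in IP2. The summed level of the 17 genes was 1717 CPM in IP1 against 999.6 CPM in IP2. Their part in the ratios of Rgs2 and Rgs16 was not tested.

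Mural markers did not all move as Rgs5 did. Of the 15 mural genes checked (pericyte and pan-mural lists), 9 had more reads per library size in IP2 and 6 in IP1, with a median log2 ratio of 0.56 and a range from -0.70 to 1.27. Vtn (396 CPM in IP1, 585 CPM in IP2) and Kcnj8 (202 and 302 CPM) were higher in IP2, while Heyl (920 and 567 CPM) was higher in IP1, the library in which Rgs5 was 1.19-fold higher. The summed level of these 15 genes was 2994 CPM in IP1 against 3294 CPM in IP2. Of the 6 arterial smooth muscle markers, 4 were higher in IP2 and 2 in IP1, with a median log2 ratio of 0.013. The 2 were Myl9 (945 and 764 CPM) and Acta2 (373 and 306 CPM). The summed level of the smooth muscle list was 1619 CPM in IP1 against 1377 CPM in IP2. Pan-neuronal markers, which matter for Rgs4, Rgs7 and Rgs8, had a median log2 ratio of 0.047 with a range from -0.24 to 0.35. Of the 6, 4 were higher in IP2. Their summed level was 14901 CPM in IP1 against 13051 CPM in IP2, most of it from Snap25 (12770 and 10795 CPM), and without Snap25 it was 2131 CPM in IP1 against 2256 CPM in IP2. Markers of excitatory neurons had a median log2 ratio of -0.15, and 4 of 5 were higher in IP1. For inhibitory neurons the median was -0.13, with 4 of 6 higher in IP1. The excitatory list summed to 1429 CPM in IP1 against 1266 CPM in IP2, and the inhibitory list to 938 against 912 CPM. The part of these cells in the ratios of the Rgs genes was not tested.

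**Figure D4:**
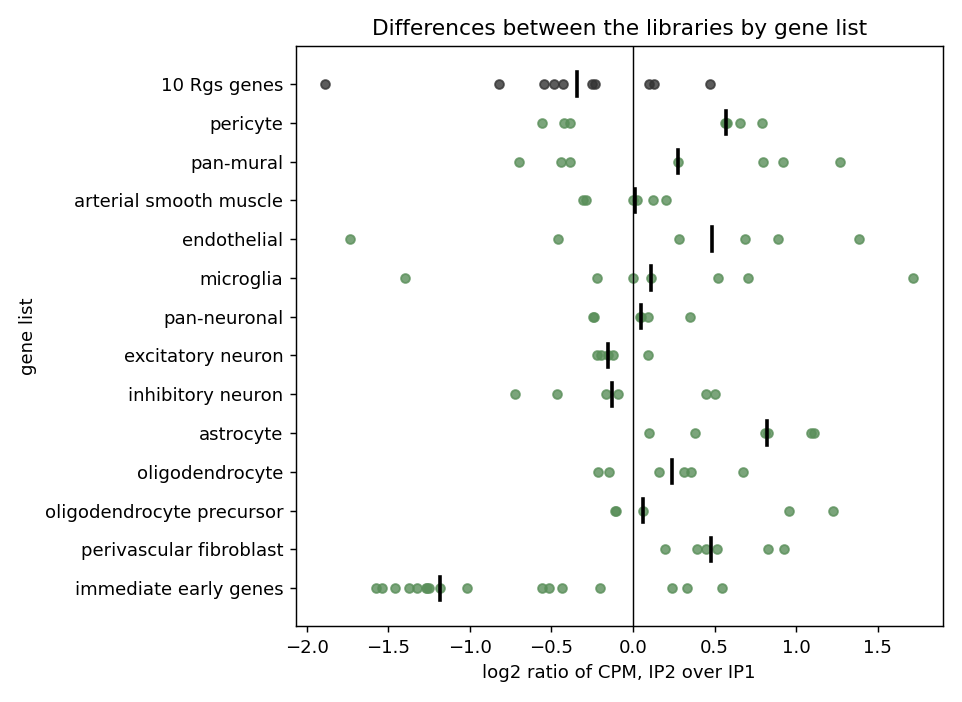
log2 ratio of CPM, IP2 over IP1, for the 10 Rgs genes (top row), 12 cell type marker lists and the immediate early genes, with 1 point per gene with at least 10 counts in total and a bar at the median. The Rgs genes have a median of -0.34, the immediate early genes -1.18, the pericyte list 0.57 and the pan-neuronal list 0.047.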

How the data were processed

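Per the submitters' processing notes, STAR 2.0.0e, HTSeq and the mm10 genome build were used. Neither the annotation nor the strand setting is given in the sources used here. The deposited values are raw counts per gene symbol. Summary lines and 1 row without a gene name (1 read in IP1, 0 in IP2) were left out. Of all listed reads, 58.1% (IP1) and 57.7% (IP2) fell in genes. Multiply aligned reads (31.2% and 31.5%) have no gene.

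Counts were divided by each library's total of gene counts. IP1 and IP2 differed beyond counting error (chi-square per degree of freedom 88.9 over 17306 genes). Ratios used a prior of 0.5 counts. Intervals are exact at 95%, and a count of 0 allows 3 counts. No exon lengths were used, so the planned order per length was replaced by the order of CPM. No test was run, since there is 1 group. The ratio code was tested on simulated data. Members and lists were chosen with earlier results of these data known. The genes named are the 10 members, Gdnf, Rpl10a, the 3 highest and any uncounted members of each of 9 functional lists, and defining markers. Rgs9bp, Gpr179, Nr4a2, Fosb and the Rgs-named genes near Rgs2 were added after their values were seen. So were Agtr1a, Adra2b, Adra2c, Adra1b, Tmem119, P2ry12 and C1qb. Positions come from RefSeq on GRCm38.p6, which matched all 10 genes. Scaling alternatives used edgeR 4.0.16 and DESeq2 1.42.0 in R 4.3.3. Other steps used scipy 1.17.1, pandas 2.3.3 and numpy 2.4.6 in Python 3.11.15.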

Additional observations from a re-analysis of the deposited data

How the results depend on the processing

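The mean CPM of each of the 10 genes moved by less than its SD under TMM scaling, under DESeq2 size factors and with Rn45s left out of the total. With 2 libraries, the value of either alone lies within 1 SD of the mean by construction and says nothing about stability. TMM scaling moved log2 ratios of IP2 over IP1 by 0.053 and DESeq2 size factors by 0.055. Under TMM the ratio was 0.18 for Rgs4, -0.20 for Rgs5, 0.15 for Rgs8 and -0.18 for Rgs7. Under DESeq2 size factors it was 0.18 for Rgs4, -0.20 for Rgs5, 0.15 for Rgs8 and -0.18 for Rgs7. All of these exceed the counting interval, with no change of direction. Under each scaling, 7 of the 10 genes were higher in IP1 and 2 passed 1.5-fold. Of all genes, 5516 of 17306 passed 1.5-fold, 3197 passed 2-fold (1 of the 10 Rgs genes, Rgs14), and 1060 of 9656 with a mean of at least 10 CPM passed 1.5-fold. The share of these calls on the side of IP1 was 56.9% in the first case and 40.3% in the last. In IP1 alone 7 and in IP2 alone 8 of the 10 genes kept the place they had by mean CPM. The alternatives that need a gene length were not run. No paired analysis was possible because there is 1 group. Depth limits Rgs14, with 76 counts in IP2, more than the other 9 genes.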

Other observations

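Of the 22 Rgs-named genes, 12 lie on chromosome 1, among them 6 of the 10 genes described. Rgs2 shares a stretch of 776 kb (143999338 to 144775427, GRCm38.p6) with Rgs13, Rgs1, Rgs21 and Rgs18, which are known from blood and immune cells or taste cells. Rgs2 had 3890 counts in IP1 and 2970 in IP2. Its neighbours had 18 and 33 counts (Rgs13), 7 and 0 (Rgs1), 13 and 0 (Rgs18) and 0 in both (Rgs21). Rgs8 and Rgs16 form another pair, 42.7 kb apart with 1 noncoding gene between them, and differed in their ratio between the libraries (log2 0.098 and -0.82).

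Receptors of vessels that signal through Gq and Gi proteins act upstream of RGS proteins. Of 17 tested, 15 were higher in IP2 at any size, beside 7735 of all 17306 tested genes, with a median log2 ratio of 0.38. By at least 1.5-fold, 6 were higher in IP2 and 1 in IP1, beside 13.7% and 18.1% of all tested genes. The other 10 were within that range. Of the 18 receptor genes listed, 8 reached 10 CPM in both libraries. Among those past 1.5-fold, Agtr1a (0.89 and 1.58 CPM), Adra2b (0.35 and 1.72 CPM), Adra2c (1.92 and 4.92 CPM) and Adra1b (5.60 and 3.26 CPM) did not. Ednrb had 77.6 CPM in IP1 against 175 CPM in IP2, S1pr3 113 and 129 CPM, and Ednra 74.8 and 109.7 CPM. Several marker lists also had medians higher in IP2. The median log2 ratios were 0.82 for astrocytes, 0.57 for pericytes, 0.49 for endothelial cells and 0.48 for perivascular fibroblasts. However, 3 of 8 pericyte and 2 of 6 tested endothelial markers were higher in IP1, and no endothelial marker reached 10 CPM in both libraries. The pan-mural list had a median of 0.28, with 4 of 7 higher in IP2 and 3 in IP1. It summed to 1481 CPM in IP1 against 1253 CPM in IP2, of which Heyl alone gave 920 and 567 CPM. The summed level was 1363 CPM in IP1 against 2418 CPM in IP2 for astrocytes, 1513 against 2040 CPM for pericytes, 21.5 against 26.3 CPM for endothelial cells and 2865 against 4004 CPM for perivascular fibroblasts. Their part was not tested.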
